A study of Rattus norvegicus with 18 samples.

Results

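Among 16364 merged H3K4me3 peaks of rat Schwann cells, 2117 (12.9%) lay on chromosomes 1 to 20 and were at least 2.5 kb but under 4 kb wide, and these wide peaks are described here. They were chosen by width and chromosome alone. The widths come from peaks called on these same ChIP libraries, so the amount of signal in a peak is not independent of the choice. ChIP-seq for H3K4me3 was done on primary Schwann cells, the glia that ensheathe peripheral axons, cultured from sciatic nerves of Fisher rats aged 3 months. Control cells received no cAMP. The other cells received the membrane-permeable analog 8-CPT-cAMP for 30 min and were collected 30 min or 3.5 h after it was washed out. The dose is uncertain, since the paper and the treatment note of the labels give 50 μM but the sample characteristics give 100 μM. Each condition had 3 ChIP libraries and 3 libraries of input DNA that was not precipitated, for 18 in all, and for replicate 3 at 30 min the labels refer to another sequencing run. No source says that replicates were separate cultures, so p-values measure the spread between these libraries, which may be technical. The cell type was not checked against marker genes, since peaks were not matched to genes.

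H3K4me3 marks nucleosomes around active promoters. It is written by methyltransferases of the SET1 and MLL family and removed by KDM5 demethylases, which are JmjC enzymes that need Fe(II). Most promoter peaks cover a few nucleosomes on each side of a transcription start site. Unusually wide domains are known in many cell types for marking genes of cell identity and genes transcribed at a high or steady rate. The comparison of control cells with cells after washout asks where the mark differs after a pulse of cAMP, and the comparison of both washout times asks where it differs as time passes.

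Reads in peaks numbered 13762905 to 17160987 per ChIP library, and reads outside peaks made up 17.0% to 20.3% of aligned reads in control libraries, 20.9% to 24.9% at 30 min and 11.5% to 20.9% at 3.5 h. The 3.5 h libraries stood apart from each other, with 20.9% in replicate 1 against 12.8% and 11.5% in replicates 2 and 3. Here reads outside peaks are all reads that counting did not assign to a peak, with the kinds of such reads summed. Aligned reads are their sum with the reads in peaks. Levels below are RPKM over reads in peaks, the reads per kb of peak for each 1000000 reads in peaks, unless another scale is named. That scale shows how reads were shared among peaks and cannot show a change common to all peaks, as no spike-in was used.

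The wide peaks had a median width of 2944 bp and covered 22.6% of all peak length. They held 25.6% ± 0.0797 of the reads in peaks in control, 25.4% ± 0.0676 at 30 min and 25.3% ± 0.0562 at 3.5 h (SD, n = 3). Their median level over the 9 libraries was 39.2, with 3.29 in the sparsest and 90.1 in the densest. Peaks of 700 bp to 2.5 kb had a median of 32.7, peaks under 700 bp of 8.82, and peaks of 4000 bp or more of 38.4. Reads per kb were thus higher in wide peaks than in shorter ones but did not rise further with width beyond 4000 bp. Within the class the middle peaks, between the 25th and the 75th percentile, lay between 30.6 and 48.6.

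**Figure D1:**
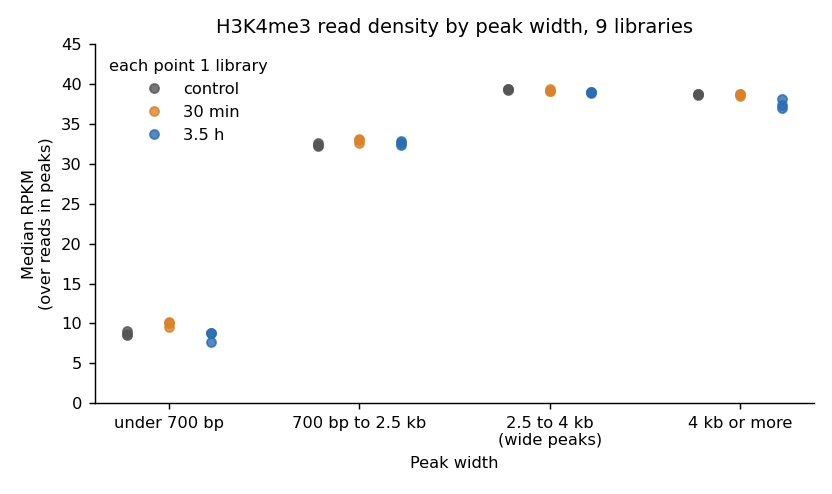
Median level (RPKM over reads in peaks, vertical axis) of 4 width classes (horizontal axis), with 1 point per ChIP library and colours for the 3 conditions. Wide peaks lie between 38.8 and 39.4 in all 9 libraries, above the medians of both shorter classes.

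The median level of the wide peaks was 39.4, 39.4 and 39.2 in control replicates 1 to 3, then 39.3, 39.2 and 39.1 at 30 min and 39.0, 38.9 and 38.8 at 3.5 h. All 3.5 h libraries lay below all control libraries, while 30 min and control overlapped. Scaled to all aligned reads in place of reads in peaks, the median was 32.1 ± 0.685 in control, 30.0 ± 0.842 at 30 min and 33.1 ± 1.90 at 3.5 h (SD, n = 3). On that scale all 30 min libraries lay below all control libraries, and the 3.5 h libraries overlapped control. The order of the conditions thus depended on the reads outside peaks, whose share differed between conditions as given above.

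A wide peak held a median of 1776 reads per library (140 to 4425), against 772 over all peaks, which gives wide peaks smaller errors. The median standard error of a log2 fold change at 3.5 h against control was 0.03 over wide peaks and 0.04 over all peaks. The median coefficient of variation between replicates was 1.51% in control, 2.08% at 30 min and 2.86% at 3.5 h. The Poisson SD was 2.43%, 2.29% and 2.41% of the mean count. The median coefficient from 3 libraries falls below that value under Poisson noise alone, so the 2 sets are not directly comparable. By chi-square, control replicates differed by less than Poisson noise, with 0.479 to 0.732 per degree of freedom between pairs. They were kept as 3 libraries because their reads outside peaks differed, from 2817646 to 3683652. The 30 min pairs ranged from 1.12 to 1.82, above Poisson noise. The 3.5 h pairs ranged from 1.58 to 5.36, with the largest value between replicates 1 and 3. Duplicates had been removed, which caps the reads of a peak, so sampling noise may lie below Poisson noise. In the fullest library of a wide peak a median of 33.8% of read starts was filled. Values under 1 therefore do not show that the control libraries were not independent.

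Enrichment compares a peak's share of aligned ChIP reads with its share of aligned reads in the 9 input libraries pooled. Its median over wide peaks was 39.3 ± 0.873 in control, 36.8 ± 1.08 at 30 min and 40.01 ± 2.13 at 3.5 h (SD, n = 3). Of the wide peaks, 2112 (99.8%) were at least 4-fold enriched in all 9 libraries, against 95.2% of all peaks. The limit of 10-fold was met by 2059 (97.3% against 79.0%), 20-fold by 1889 (89.2% against 64.8%) and 40-fold by 722 (34.1% against 25.6%). Single peaks ranged from 3.06 to 84.8 with a median of 38.6. The reads outside peaks had a density of 0.717 to 2.19 per kb, which was 0.130% to 0.325% of the median density in wide peaks of the same library.

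Input libraries differed more than ChIP libraries. Wide peaks make up 0.245% of the chromosome length spanned by peaks, and they held 0.237%, 0.237% and 0.664% of aligned reads in control inputs 1 to 3. The shares were 0.310%, 0.305% and 0.803% in the 30 min inputs and 0.329%, 0.521% and 0.257% in the 3.5 h inputs. Control input 3 and 30 min input 3 stood highest and supplied 70.8% of the pooled input reads in wide peaks. Across the 2117 wide peaks, input reads per kb were correlated with the mean level over the 9 ChIP libraries. The Spearman correlation was highest in 30 min input 3, at 0.314, and lowest in control input 1, at 0.00179. Whether ChIP DNA reached control input 3 and 30 min input 3 was not tested. Without both inputs the median enrichment was 65.6 in control, 61.3 at 30 min and 67.0 at 3.5 h, with 1 read added to each pooled input count. With inputs pooled only within a condition it was 37.4, 31.3 and 58.1, so a difference in enrichment between conditions depended on which inputs were used.

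**Figure D2:**
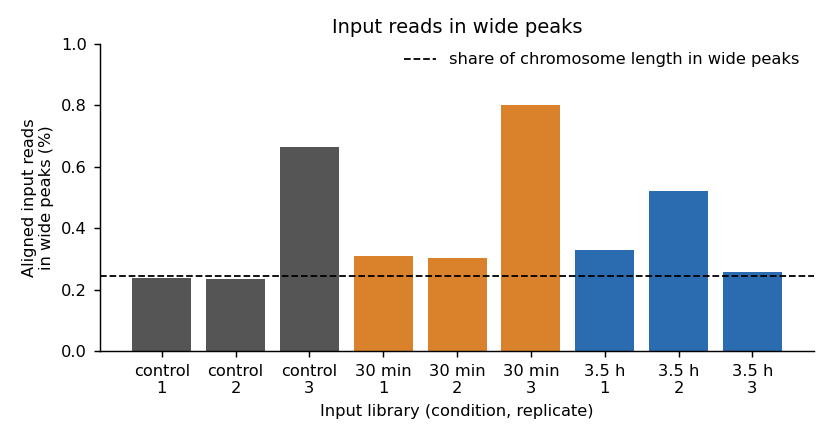
Share of aligned reads that lie in the 2117 wide peaks (percent, vertical axis) for each of the 9 input libraries (horizontal axis, condition and replicate). The dashed line marks the 0.245% of spanned chromosome length that wide peaks cover, and control replicate 3 and 30 min replicate 3 stand highest at 0.664% and 0.803%.

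Inputs were also tested between conditions. Of 3320 peaks with enough input reads, 1494 were wide, and edgeR called 0 in each of the 3 comparisons (0% of all tested peaks). Median reads per wide peak were 71 in control input 3 and 88 in 30 min input 3, but 3 to 18 in the others. With reads so few and uneven the test could miss differences, so 0 calls do not measure a background for the ChIP comparisons. At an unadjusted p under 0.05, 0 wide peaks differed at 30 min against control, 19 at 3.5 h against control and 13 at 3.5 h against 30 min. No other tool was run on the inputs.

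At 30 min few wide peaks changed by edgeR's quasi-likelihood test across all 9 ChIP libraries. With a Benjamini-Hochberg adjusted p under 0.05, 8 wide peaks (0.378%) fell and 16 (0.756%) rose, against 0.281% and 0.532% of all peaks. The called falls were small, with 0.12 to 0.23 on the log2 scale, and the called rises were 0.12 to 0.54. In 563 wide peaks (26.6%) all 30 min libraries lay below all control libraries, and in 275 (13.0%) they lay above, against 17.5% and 18.3% of all peaks. The median log2 fold change was -0.01 over wide peaks and 0.02 over all peaks. These counts changed with the libraries that set the error. In a fit of the 6 control and 30 min libraries alone, 266 wide peaks (12.6%) fell and 144 (6.80%) rose, against 6.53% and 5.97% of all peaks, and these included all 8 and all 16. Leaving out any 1 control or 30 min library left 0 to 3 falls and 3 to 15 rises. Without 3.5 h replicate 1 the counts were 148 and 115 (6.99% and 5.43%, against 3.56% and 4.10% of all peaks). Without replicate 2 they were 3 and 10 (0.142% and 0.472%, against 0.0856% and 0.232%), and without replicate 3 they were 192 and 74 (9.07% and 3.50%, against 4.72% and 3.15%). DESeq2 called 12 wide peaks lower and 17 higher (0.567% and 0.803%, against 0.251% and 0.471% of all peaks) when each tested peak kept its adjusted p. With its independent filtering only 748 of the 2117 wide peaks had an adjusted p, and 22 of them were lower and 5 higher. These were 1.04% and 0.236% of wide peaks, against 0.391% and 0.104% of all peaks. At an unadjusted p under 0.05, edgeR had 354 lower and 204 higher wide peaks, against 9.92% and 11.5% of all peaks.

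The 4 largest called falls at 30 min are given in CPM of the TMM-scaled library, the counts for each 1000000 reads of library size, with replicates 1 to 3 in order. Like all largest falls and rises named below, they were chosen among called peaks whose 2 compared groups did not overlap. That separation was thus set by the choice. Peak_12775 (chr1:198456713-198460020, Rnor_6.0) had 93.4, 95.4 and 95.2 in control, 80.6, 78.1 and 83.3 at 30 min, and 92.5, 90.4 and 87.8 at 3.5 h. It fell by 0.23 ± 0.03 on the log2 scale (SE, edgeR adjusted p = 0.00371), and its 30 min values lay below all others. Peak_10991 (chr2:211205548-211208241) had 137, 134 and 137 in control, 118, 124 and 121 at 30 min, and 134, 135 and 141 at 3.5 h. It fell by 0.17 ± 0.03 (edgeR adjusted p = 0.0158) and at 3.5 h overlapped control. Peak_10515 (chr19:54765456-54768131) fell from 90.2 ± 2.04 to 79.0 ± 4.07 (SD, n = 3; edgeR adjusted p = 0.0456). Peak_4625 (chr2:5577967-5580828), the densest of all wide peaks, fell from 271 ± 4.70 to 243 ± 7.55 (SD, n = 3; edgeR adjusted p = 0.0379).

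The 4 largest called rises at 30 min included 1 peak that later fell below control. Peak_11220 (chr20:21838869-21841368) had 31.8, 30.0 and 33.5 CPM in control, 52.7, 44.9 and 40.8 at 30 min, and 20.2, 20.2 and 17.9 at 3.5 h. Its 3 groups did not overlap, with a rise of 0.54 ± 0.08 at 30 min against control (SE, log2; edgeR adjusted p = 0.0139) and a fall of 0.71 ± 0.10 at 3.5 h against control (edgeR adjusted p = 0.000433). Peak_8740 (chr1:80218868-80222516) had 109, 109 and 117 in control, 164, 154 and 153 at 30 min, and 139, 129 and 120 at 3.5 h. It rose by 0.50 ± 0.05 at 30 min (edgeR adjusted p = 0.000249), and the 3.5 h values lay between the other groups. Peak_5584 (chr3:165372252-165375408) had 59.0 ± 1.23, 77.8 ± 3.03 and 75.2 ± 4.52 in control, at 30 min and at 3.5 h (SD, n = 3). It was higher than control at both times (edgeR adjusted p = 0.000877 and 0.000287). Peak_7315 (chr8:111214414-111216985) rose from 28.4 ± 0.869 to 36.6 ± 0.982 at 30 min (SD, n = 3; edgeR adjusted p = 0.0444). Of the 8 named peaks, Peak_5584 and Peak_8740 kept their call under all 19 alternatives that gave them an adjusted p, and the other 6 lost it under at least 1.

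Many more wide peaks differed at 3.5 h against control. By the same edgeR test 615 wide peaks (29.1%) fell and 260 (12.3%) rose, against 17.8% and 13.7% of all peaks. Groups did not overlap in 789 lower (37.3%) and 382 higher (18.04%) wide peaks, against 24.8% and 22.8% of all peaks. Most changes were small: the median called fall was 0.14 and the median called rise 0.14 on the log2 scale. Beyond 1.5-fold lay 14 called falls and 2 called rises of wide peaks, and beyond 2-fold 1 fall, with no share over all peaks given for these sizes. The median log2 fold change over wide peaks was -0.03, against 0.00 over all peaks, and the median size regardless of sign was 0.07 against 0.10. Peaks of 4000 bp or more were called lower in 42.8% and peaks of 700 bp to 2.5 kb in 15.4%, with the smaller errors of the wider peaks as given above. With all aligned reads as library size, 158 fell and 222 rose (7.46% and 10.5%, against 8.08% and 15.6% of all peaks), so the excess of falls did not hold on that scale. That scale raised the median log2 fold change of all peaks to 0.07.

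The 4 largest falls at 3.5 h against control were all in the sparsest bin of wide peaks by read density, described below. Peak_15815 (chr11:88686372-88689498) had 28.2, 24.9 and 26.0 CPM in control, 40.9, 35.0 and 29.7 at 30 min, and 12.3, 8.87 and 7.73 at 3.5 h. Its fold against control was 0.368, a log2 fold change of -1.44 ± 0.15 (SE, edgeR adjusted p = 0.000122), and the 3.5 h group lay far below both others. Peak_11063 (chr2:250229454-250232152) had 35.0, 32.8 and 31.7 in control, 40.9, 37.4 and 36.7 at 30 min, and 20.7, 17.2 and 12.3 at 3.5 h. Its log2 fold change was -0.98 ± 0.12 (edgeR adjusted p = 0.000287). Peak_10141 (chr18:27422753-27425331) had 42.0, 41.3 and 40.6 in control and 30.1, 20.02 and 12.9 at 3.5 h, a log2 fold change of -0.96 ± 0.19 (edgeR adjusted p = 0.00282). Peak_2306 (chr7:144064000-144066917) had 77.0, 74.8 and 76.5 in control and 58.7, 38.2 and 28.6 at 3.5 h, a log2 fold change of -0.85 ± 0.16 (edgeR adjusted p = 0.00203). In all 4 peaks 3.5 h replicate 1 was nearest to control and replicate 3 farthest. Over the 615 called falls, replicate 1 was the highest 3.5 h library in 467, replicate 2 in 30 and replicate 3 in 118. Replicate 1 also had the most reads outside peaks of the 3.5 h libraries, as given above, and the part of that difference in the result was not tested. Without it 721 wide peaks fell and 351 rose (34.1% and 16.6%, against 23.3% and 19.2% of all peaks). Without replicate 2, by contrast, 367 fell and 182 rose (17.3% and 8.60%, against 10.4% and 7.88%). Without control replicate 1 the counts were 409 and 159 (19.3% and 7.51%, against 11.01% and 6.63%).

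The 4 largest rises stayed below 2-fold. Peak_7154 (chr8:50225697-50228814) had 25.5, 21.4 and 22.1 CPM in control, 32.7, 33.3 and 32.2 at 30 min, and 49.5, 46.7 and 34.7 at 3.5 h. Its log2 fold change at 3.5 h was 0.93 ± 0.11 (SE, edgeR adjusted p = 0.00021), and the 3 groups did not overlap. Peak_8664 (chr12:36990763-36993631) had 18.1, 17.9 and 19.6 in control, 19.7, 18.7 and 22.7 at 30 min, and 31.8, 28.1 and 23.5 at 3.5 h, a log2 fold change of 0.59 ± 0.11 (edgeR adjusted p = 0.00188). Peak_5543 (chr3:156338990-156342957) had 68.9, 67.8 and 71.7 in control, 68.8, 67.0 and 76.5 at 30 min, and 96.1, 107 and 105 at 3.5 h, a log2 fold change of 0.56 ± 0.05 (edgeR adjusted p = 3.17e-05). Its control and 30 min libraries overlapped, and all 3.5 h libraries lay above them. Peak_5813 (chr4:117293866-117296569) rose from 19.5 ± 2.67 to 28.8 ± 0.165 (SD, n = 3; edgeR adjusted p = 0.00137). These 4 rises and the 4 falls kept their direction and call under all 20 alternatives run on each.

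**Figure D3:**
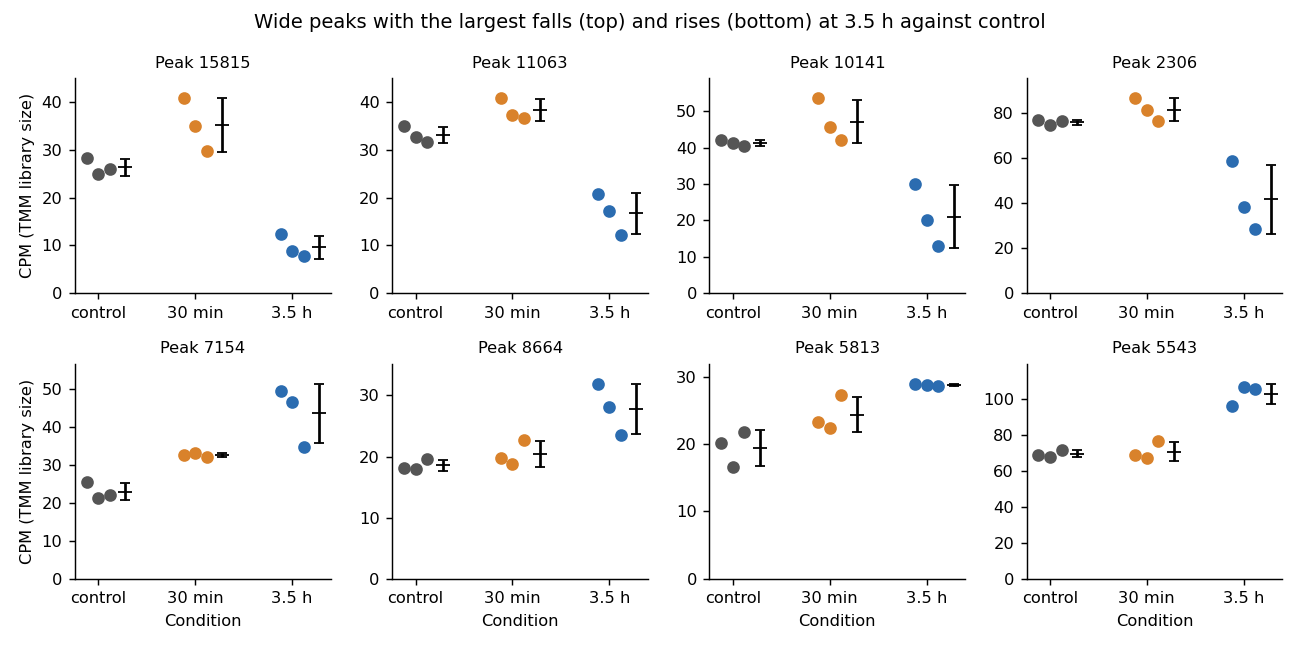
CPM of the TMM-scaled library (vertical axis, from 0) in the 9 ChIP libraries by condition, for the 4 wide peaks with the largest called fall at 3.5 h against control (top) and the 4 with the largest called rise (bottom). Points are replicates 1 to 3 from left to right, and bars to their right are mean and SD. The 8 peaks were chosen among called peaks whose 3.5 h and control libraries did not overlap.

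Between 30 min and 3.5 h, wide peaks moved in both directions. By edgeR 625 (29.5%) fell and 465 (21.97%) rose, against 23.3% and 17.9% of all peaks. Groups did not overlap in 664 lower and 535 higher wide peaks (31.4% and 25.3%), against 26.6% and 22.9% of all peaks. Among called wide peaks falls were larger than rises, with 35 falls and 0 rises beyond 1.5-fold, and 7 falls beyond 2-fold. Shares over all peaks are not given for these sizes, so this is not shown to be particular to wide peaks. With all aligned reads as library size the balance turned to 139 lower and 1146 higher (6.57% and 54.1%, against 10.2% and 48.1% of all peaks), and the median log2 fold change of all peaks moved to 0.16. Relative to that shift the wide peaks, with a median of 0.15, did not stand higher.

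Peak_15815 again fell most, with a log2 fold change of -1.86 ± 0.15 at 3.5 h against 30 min (SE, edgeR adjusted p = 9.59e-06). Peak_11220 followed with -1.25 ± 0.09 (edgeR adjusted p = 6.03e-06), then Peak_11063 with -1.19 ± 0.12 and Peak_10141 with -1.15 ± 0.18 (edgeR adjusted p = 3.45e-05 and 0.000472). The libraries of these peaks are given above, except those of Peak_10141 at 30 min, which had 53.7, 45.6 and 42.1 CPM. Among the rises, Peak_5789 (chr4:100096845-100099951) had 120, 126 and 129 CPM in control, 120, 126 and 131 at 30 min, and 173, 169 and 171 at 3.5 h. Its log2 fold change was 0.44 ± 0.03 against 30 min (edgeR adjusted p = 6.03e-06), with control and 30 min overlapping. Peak_8326 (chr10:104450605-104453417) had 32.9, 31.1 and 30.6 in control, 33.2, 31.6 and 35.4 at 30 min, and 47.6, 44.2 and 42.5 at 3.5 h, a log2 fold change of 0.42 ± 0.06 against 30 min (edgeR adjusted p = 0.000156). Peak_5543 rose by 0.54 ± 0.05 and Peak_8664 by 0.45 ± 0.10 (edgeR adjusted p = 1.9e-05 and 0.0045). Both comparisons with 3.5 h share its libraries, so a peak named under both is not shown independently.

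The direction of change went with the read density of the peak. Wide peaks were put in 4 bins of like size by their mean level over the 9 libraries, from the sparsest (530 peaks, 3.29 to 30.6) to the densest (529 peaks, 48.6 to 90.1). The median log2 fold change at 30 min against control was 0.05 in the sparsest bin, then 0.00, -0.02 and -0.04 in the densest. At 3.5 h against 30 min the order was the opposite, with -0.10, -0.04, 0.01 and 0.05. Against control, 3.5 h gave -0.07, -0.04, -0.03 and 0.00.

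The libraries show the same order. In the sparsest bin the median level was 24.1, 24.1 and 24.1 in control, 25.4, 24.6 and 24.9 at 30 min, and 23.9, 22.9 and 22.2 at 3.5 h, with no overlap between groups. In the densest bin it was 56.4, 56.1 and 56.0 in control, 54.4, 55.1 and 54.6 at 30 min, and 55.5, 56.4 and 57.5 at 3.5 h. There the 30 min libraries lay below all others, and control and 3.5 h overlapped. At 3.5 h the share of reads outside peaks was 20.9%, 12.8% and 11.5% in replicates 1 to 3. From replicate 1 to 3 the sparsest bin went down and the densest up. At 30 min the share was 24.9%, 20.9% and 24.6%, with replicate 2 lowest in the sparsest bin and highest in the densest. In control, replicate 2 had the largest share, 20.3%, but lay between the others in both bins. The part of these shares in the order by density was not tested.

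Calls followed. At 3.5 h against control, 206 peaks of the sparsest bin fell (38.9%), then 183, 138 and 88 (16.6%) towards the densest. The rises, 83, 52, 71 and 54, had no such order. At 3.5 h against 30 min, falls went from 248 (46.8%) through 202 and 124 to 51 (9.64%), and rises from 63 (11.9%) through 69 and 126 to 207 (39.1%). Removing duplicates caps a peak at 1 read per start and strand, and in the fullest library 70.3% of these starts were filled in Peak_4625. After a correction for filled starts the medians at 30 min against control were 0.03, -0.02, -0.03 and -0.04 from sparsest to densest. With loess offsets, which remove a trend with abundance fitted over all peaks, they were 0.06, 0.02, 0.01 and -0.01. With all aligned reads as library size they were -0.04, -0.09, -0.11 and -0.13, so the sparsest bin lay below 0 on that scale. The order from sparse to dense was present with the correction and with loess offsets. A change of library size shifts all peaks of a library alike, so all aligned reads could hardly alter the order. On that last scale the bins at 3.5 h against control had 108, 36, 10 and 4 falls and 98, 42, 52 and 30 rises. Over all bins these were 7.46% and 10.5% of wide peaks, against 8.08% and 15.6% of all peaks. The medians of the bins were -0.003, 0.020, 0.038 and 0.068. At 3.5 h against 30 min the bins had 111, 21, 5 and 2 falls and 169, 236, 319 and 422 rises. Over all bins these were 6.57% and 54.1% of wide peaks, against 10.2% and 48.1% of all peaks. Shares of other peaks by bin are not given on that scale, so these counts are not shown to be particular to wide peaks. The medians of that comparison were 0.06, 0.11, 0.17 and 0.21, so those of the sparser bins, below 0 on the scale of reads in peaks, lay above 0.

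**Figure D4:**
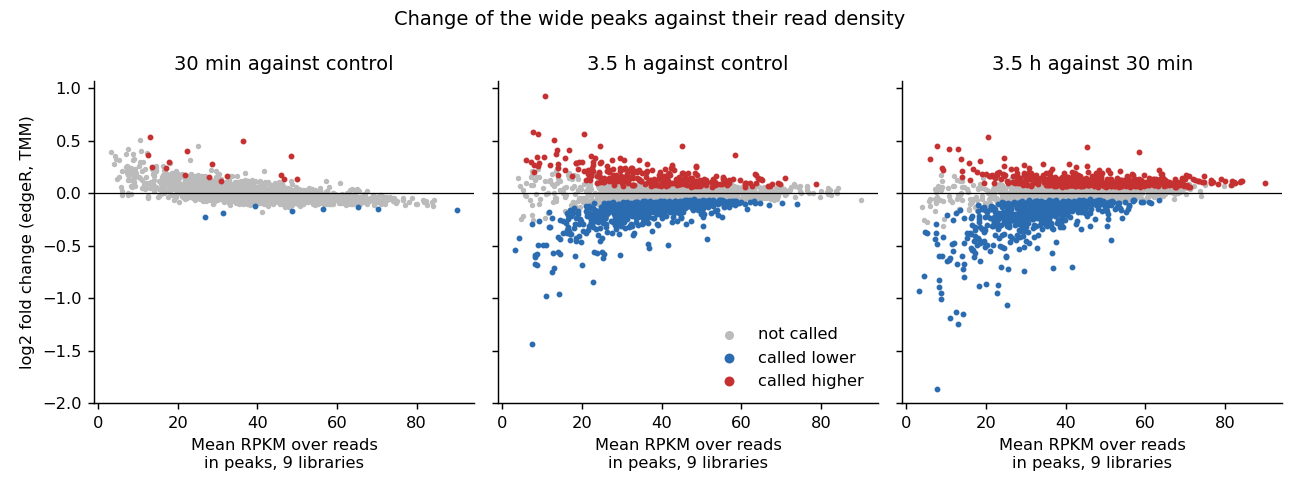
Log2 fold change (edgeR with TMM, vertical axis) against mean level in the 9 ChIP libraries (RPKM over reads in peaks, horizontal axis) for 2117 wide peaks in 3 comparisons. Blue and red points are called lower and higher at an adjusted p under 0.05, and the largest falls, to -1.44 against control and -1.86 against 30 min, lie among sparse peaks.

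**Figure D5:**
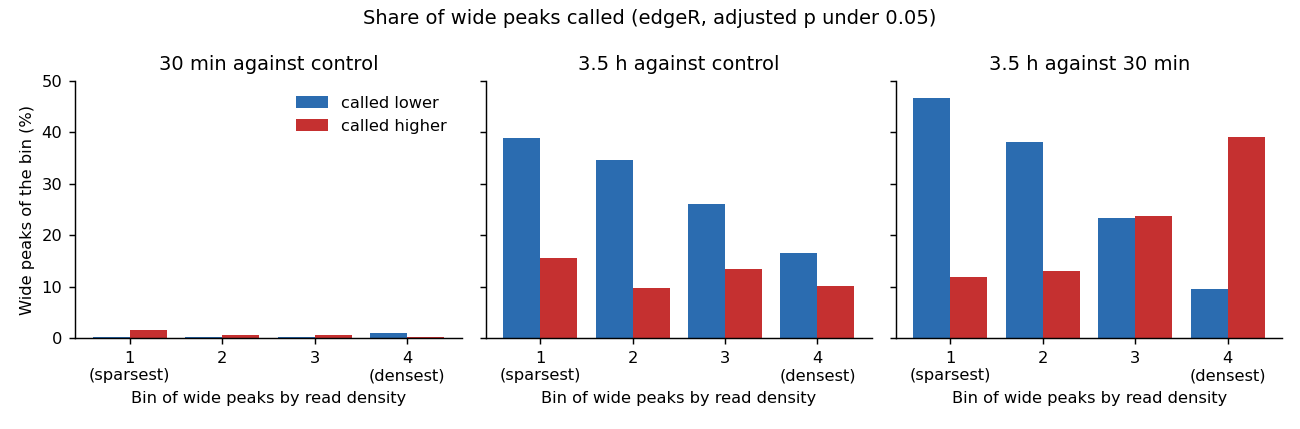
Share of wide peaks called lower (blue) and higher (red) by edgeR in each bin of read density (horizontal axis, sparsest to densest; vertical axis, percent of the bin's peaks). At 3.5 h against 30 min the falls go from 46.8% to 9.64% and the rises from 11.9% to 39.1%.

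Shorter peaks in the same range of read density were set beside each bin. Within a range their densities were not matched to those of the wide peaks. In the density range of the sparsest bin, 17.0% of 5363 peaks of 700 bp to 2.5 kb fell at 3.5 h against control, against 38.9% of the wide peaks there. In the range of the densest bin it was 7.57% of 2181 shorter peaks against 16.6%. At 3.5 h against control the median log2 fold changes of the shorter peaks were 0.03, 0.00, 0.00 and 0.02 from sparse to dense. These lay above those of the wide peaks in each bin. In the other comparisons the shorter peaks had an order by density like that of the wide peaks. Their medians were 0.103, 0.005, -0.018 and -0.048 at 30 min against control. At 3.5 h against 30 min they were -0.055, 0.004, 0.028 and 0.074, with falls from 30.1% to 3.53% and rises from 6.56% to 46.3%. Shorter peaks held fewer reads, with a median of 278 per library in the sparsest range against 1061 in wide peaks, and a median standard error of 0.093 against 0.046 at 3.5 h against control. Within the wide peaks, width itself made a small difference, with 137, 150, 146 and 182 falls at 3.5 h against control from the narrowest to the widest bin.

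The sparsest members were Peak_12039 (chr4:71744820-71747627, level 3.29), Peak_4247 (chr17:72423237-72425966, just above it) and Peak_476 (chr18:26209643-26212882, 4.31). Peak_12039 had 9.05, 10.3 and 8.37 CPM in control, 11.4, 11.4 and 13.5 at 30 min, and 7.90, 5.92 and 5.20 at 3.5 h, where it fell by 0.54 ± 0.15 against control (SE, log2; edgeR adjusted p = 0.0195). It had the lowest enrichment, 3.06-fold, followed by Peak_4247 with 3.73-fold. The densest members were Peak_4625 (90.1), Peak_10775 (chr1:128922483-128925600, 84.4) and Peak_9976 (chr17:49832386-49835182, 84.1). Peak_10775 had 270, 260 and 262 CPM in control, 247, 258 and 251 at 30 min, and 258, 274 and 288 at 3.5 h, and it passed the test only against 30 min (0.12 ± 0.03, edgeR adjusted p = 0.0151). The highest enrichment was 84.8-fold in Peak_4625 and 77.8-fold in Peak_11352 (chr3:7797275-7800954).

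The peaks around the limits of the width rule had the following levels. The narrowest members, Peak_13155 and Peak_11220 of 2500 bp, had levels of 47.2 and 13.0. Peak_10007 and Peak_11271, just outside and 1 bp narrower, had 41.0 and 54.4. The widest members, Peak_4427 at 1 bp and Peak_10734 at 2 bp under 4 kb, had 31.5 and 50.4, and Peak_964 with 4001 bp and Peak_13866 with 4002 bp, just outside, had 34.5 and 38.5.

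Some wide peaks were parts of longer marked stretches. The median gap to the nearest other peak was 20762 bp, and the smallest was 84 bp. Another peak lay within 1000 bp of 207 wide peaks (9.78%), and in 177 of these the pair together spanned 4000 bp or more. Peak_4625 is such a case, with a neighbour 108 bp away. The width of such a peak depends on where the stretch was divided. Among 1240 peaks of 700 bp to 2.5 kb with a neighbour that close, 633 spanned 2.5 kb or more but under 4 kb together with it, in 367 distinct pairs, of which 15 held a wide peak.

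Neighbouring peaks were compared next. Over the 453 wide peaks with another peak within 5000 bp, their log2 fold changes had a Pearson correlation with those of the neighbour of 0.0781 at 30 min against control, 0.265 at 3.5 h against control and 0.224 at 3.5 h against 30 min. The pairs share libraries, and 65 of the neighbours were wide peaks themselves. Within 100 kb of Peak_15815 lay 1 other peak, which was higher at 3.5 h against control (log2 fold change 0.10). Near Peak_11063 lay 3 others, with 0 called lower and 1 higher, and near Peak_10141 5, with 0 lower and 1 higher. Near Peak_2306 lay 9, with 1 called lower and 1 higher. The largest falls therefore did not extend over most peaks of their surroundings. Near the dense Peak_4625, by contrast, a neighbour had a log2 fold change of -2.05 at 3.5 h against control while Peak_4625 had -0.06, and near Peak_10775 a neighbour had -1.66 against 0.05.

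Wide peaks were found on every one of the 20 chromosomes, from 8.99% of the peaks on chromosome 18 to 17.1% on chromosome 7. The share of wide peaks that fell at 3.5 h against control ranged from 17.7% on chromosome 3 (26 of 147) to 44.6% on chromosome 16 (29 of 65). Shares over all peaks of each chromosome are not given, so this range is not shown to be particular to wide peaks. Differences between chromosomes were not tested.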

How the data were processed

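H3K4me3 ChIP and input reads of primary rat Schwann cells were examined. The authors trimmed reads with Trim Galore, aligned them to Rnor_6.0 with BWA, kept uniquely mapped reads without duplicates, and used MACS2 and IDR to define peaks, which were merged between treatments before HTSeq counting. The deposited values are raw counts per merged peak, without normalization. Counts of the combined table and of the 18 single tables did not differ (0 of 294642 values). Reads outside peaks were left out of library sizes.

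Conditions and replicate numbers came from the labels. The edgeR package 4.0.16 (R 4.3.3) was run on the counts of all 9 ChIP libraries together (quasi-likelihood, TMM, filter on low counts with a minimum of 10, a term for condition), adjusted over all 16364 peaks, and called at an adjusted p under 0.05. All peaks passed the filter. Inputs were tested in the same way. Levels and enrichment were computed with Python 3.11.15, numpy 2.4.6 and pandas 2.3.3, and figures with matplotlib 3.10.9.

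Named peaks were the 4 largest called falls and rises without overlap between groups in each comparison, the 3 highest and lowest by level, the 2 highest and lowest by enrichment, and the 2 on each side of each width limit. The members, lists and tests were chosen with earlier results of these data known. Bins by density, shorter peaks in the same density ranges, surroundings of named peaks and joined spans were chosen after values were seen. Alternatives were other library sizes, loess offsets (span 0.3), DESeq2 1.42.0 with and without independent filtering, no or stricter filters, the compared conditions alone, a replicate block, each library left out, stricter p, narrower width limits, other input pools and corrected counts. No annotation of Rnor_6.0 was used, so genes and sequence were not analysed here.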

Additional observations from a re-analysis of the deposited data

How the results depend on the processing

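The 24 results for named peaks were recomputed under 20 alternatives each. Of these 480 values, 7 had no adjusted p, all from DESeq2 with its independent filtering at 30 min against control. Of the other 473, 438 kept direction and call, 35 kept the direction and lost the call, all at 30 min against control, and 0 reversed. The causes of the changes listed next were not tested.

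At 30 min against control, 8 wide peaks fell and 16 rose. The falls were 13 without TMM, 4 with all aligned reads, 4 with loess offsets, 22 with DESeq2 and its independent filtering, 266 in a fit of the compared conditions alone, 14 after correction for filled starts, 1 at an adjusted p under 0.01 and 5 with width limits narrowed by 250 bp at each end. The rises were 6 with all aligned reads, 25 with loess offsets, 5 with DESeq2 and that filtering, 144 in the fit of the compared conditions and 4 at an adjusted p under 0.01. Leaving out 1 library gave 0 to 192 falls and 3 to 115 rises. With all aligned reads the falls were 0.189% and the rises 0.283% of wide peaks, against 0.202% and 0.214% of all peaks. Counts given in this section without such shares show only how the number of called wide peaks moved. The median log2 fold change was -0.10 with all aligned reads and 0.014 with loess offsets, a choice made after seeing the data, as were the corrected counts, the smaller input pool and DESeq2 without that filtering, which gave 12 falls and 17 rises.

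With the replicate number as a block, 13 fell and 38 rose at 30 min against control, and the block changed no other count by over 1.5 times. Correlations of same-numbered libraries' deviations ranged from -0.213 to 0.353 over all peaks and from -0.248 to 0.565 over wide peaks. They fell below 0.1 in some pairs of both, so the numbers were not taken to pair the libraries. Over wide peaks they reached 0.565 in replicate 1 (30 min and 3.5 h) and 0.450 in replicate 3 (control and 30 min). Whether some libraries shared a batch was not tested.

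The counts at 3.5 h against control, 615 and 260, became 158 falls with all aligned reads, 370 and 145 at an adjusted p under 0.01, and 373 and 149 with narrower limits. Leaving out 1 library gave 367 to 721 falls, 159 to 351 rises and medians of -0.039 to -0.017. The median was 0.040 with all aligned reads and -0.015 with loess offsets. Between 30 min and 3.5 h, all aligned reads gave 139 falls, 1146 rises and a median of 0.15, an adjusted p under 0.01 gave 248 rises, and narrower limits gave 387 and 272. Leaving out 1 library gave 443 to 702 falls and 339 to 569 rises.

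In control, at 30 min and at 3.5 h, the share of reads was 20.9%, 19.5% and 21.5% over all aligned reads and 15.8%, 15.7% and 15.6% with narrower limits. The median level was 32.1, 30.0 and 33.1 over all aligned reads and 39.2, 39.0 and 38.6 with narrower limits. The median enrichment was 37.4, 31.3 and 58.1 with inputs of the condition alone and 65.6, 61.3 and 67.0 without control input 3 and 30 min input 3. Depth limits the sparsest peaks most, where a library held as few as 74 reads.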
